A study of Mus musculus with 24 samples.

Results

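The PEA3 family comprises 3 genes, Etv1, Etv4 and Etv5, which encode closely related ETS transcription factors. Their RNA was followed in the lungs of mice with mutant EGFR (the epidermal growth factor receptor), through every probe set of the array that its annotation assigns to a member gene alone. This rule gave 5 probe sets, 2 for Etv4 and 3 for Etv5, out of 34945 on the array that name a single gene. Etv1 had 0 of its own, because its 3 probe sets are also annotated to Gm5454, a pseudogene in the RefSeq table, and these are described separately below. Etv4 and Etv5 were both higher in EGFR-mutant tumours than in normal lung, Etv4 by 2.63-fold to 2.74-fold and Etv5 by 1.55-fold to 1.73-fold at their brightest probe sets. Neither gene differed detectably between the tumour genotypes.

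PEA3 factors bind the GGA core of ETS sites and act mostly as activators. They stand at the end of the route from receptor tyrosine kinases through RAS and ERK: the repressor Capicua (CIC) keeps their genes low, ERK signalling relieves that repression, and the ubiquitin ligase subunits COP1 and DET1 have the proteins degraded. In the developing lung, Etv4 and Etv5 are expressed in the epithelium of the branching tips under FGF10 and FGFR2, and in the adult lung Etv5 is known for maintaining alveolar type 2 cells, which make surfactant.

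The series holds 24 Affymetrix MOE 430 2.0 arrays of total RNA from normal lung tissue or from visible tumour nodules cut out of the lung. Tumours came from bitransgenic mice kept on doxycycline food for 3 to 6 months and carried L858R (4 arrays, strain label FVB mixed), L858R+T790M (5 arrays, FVB) or T790M (5 arrays, FVB). L858R activates the kinase of EGFR, while T790M, also in the kinase, is known for resistance to its inhibitors. Normal lung came from littermates with no transgene or with 1 transgene, also on doxycycline, as 5 arrays of strain label FVB, here FVB normals, and 5 of strain label FVB mixed, here mixed-strain normals. Which normals carried a transgene, the promoters that drove the transgenes, and the sex and identity of the mice were not given. The labels do not say that each array is a separate mouse, so the spread behind each p-value is that between samples and may be technical.

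The median log2 value of an array was 7.21 to 7.34, and the 3′ minus 5′ difference of the Gapdh control probe sets between -0.31 and -0.03 in all groups. For the Actb control probe sets this difference was 0.37 to 0.65. Of the 8 alveolar type 2 markers read, 7, 7 and 6 rose in L858R, L858R+T790M and T790M tumours, and their mean log2 value was 13.34 to 13.60 in normals and 13.78 to 14.26 in tumours. All 6 endothelial markers fell in each tumour group, with mean log2 values of 11.70 to 12.25 in normals and 8.16 to 10.92 in tumours. Counts that fell, in the same order of groups, were 6, 5 and 7 of 7 for alveolar type 1, 4, 4 and 3 of 4 for club, 5, 5 and 5 of 5 for ciliated, 5, 3 and 3 of 6 for fibroblast, and 5, 5 and 4 of 5 for smooth muscle and pericyte markers. For cardiac muscle they were 5, 6 and 5 of 6, for T cells 3, 4 and 4 of 4, and for B cells 2, 2 and 2 of 3. Macrophage markers rose for 3, 1 and 0 of 5 and fell for 1, 0 and 2, neuroendocrine markers rose for 0, 1 and 1 of 3 and fell for 1, 0 and 0, and 0 of 3 nerve and glia markers was called (limma, adjusted p under 0.05). The part of these shifts in the results that follow was not tested. In such bulk tissue, a lower level through fewer cells of a type cannot be told apart from less RNA in each cell.

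Etv4, first known as PEA3, was read by 1423232_at and by the dimmer 1443381_at. At 1423232_at, the FVB normals had log2 values of 7.45, 7.52, 7.50, 7.54 and 7.31, and the mixed-strain normals 7.29, 7.18, 7.46, 6.92 and 7.47. The L858R tumours read 7.95, 8.80, 9.16 and 8.72, the L858R+T790M tumours 9.04, 9.43, 8.88, 9.18 and 8.07, and the T790M tumours 8.61, 8.73, 8.71, 9.59 and 8.84. All 14 tumours lay above the highest of the 10 normals, with L858R replicate 1 and L858R+T790M replicate 5 the lowest of them. The tumours spanned 1.64 log2 units, 3.12-fold, against 0.62 among the normals. Group means ± SD were 7.26 ± 0.23 (n = 5) in mixed-strain normals, 7.46 ± 0.09 (n = 5) in FVB normals, 8.66 ± 0.51 (n = 4) in L858R, 8.90 ± 0.40 (n = 5) in T790M and 8.92 ± 0.52 (n = 5) in L858R+T790M tumours. In this order, the only neighbours whose ranges stood apart were the FVB normals and the L858R tumours.

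Against the normals of its own strain label, Etv4 at 1423232_at rose by 1.39 ± 0.24 (SE) in L858R tumours, which is 2.63-fold (95% interval 0.90 to 1.89 on the log2 scale, adjusted p = 7.8e-05 by limma). The rise was 1.46 ± 0.23 in L858R+T790M tumours (0.99 to 1.92, adjusted p = 3.3e-05) and 1.43 ± 0.23 in T790M tumours (0.96 to 1.90, adjusted p = 4.0e-05). The L858R+T790M and T790M comparisons share the 5 FVB normals. Every one of these calls held without any single array.

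The dimmer Etv4 probe set 1443381_at moved the same way over a much smaller span. The normals read 5.08 to 5.45, and the L858R tumours 5.23, 5.85, 5.68 and 5.62. The L858R+T790M tumours read 5.92, 5.84, 5.62, 5.64 and 5.39, and the T790M tumours 5.44, 5.51, 5.65, 5.92 and 5.72. Of the 14 tumours, 11 lay above the highest normal, so the ranges of tumours and normals overlapped. The difference was 0.36 ± 0.12 in L858R tumours (adjusted p = 0.0162), 0.30 ± 0.11 in L858R+T790M tumours (adjusted p = 0.0401) and, without a call, 0.26 ± 0.11 in T790M tumours (adjusted p = 0.0634). The L858R call was lost without L858R replicate 2 (0.28, adjusted p = 0.0792). The L858R+T790M call was lost without any 1 of the FVB normals or of L858R+T790M replicates 1, 2 and 4 (0.24 to 0.31, adjusted p from 0.0503 to 0.119). The values of the Etv4 probe sets followed each other over the 24 arrays (r = 0.87, and 0.75 for deviations from the group means), and both come from the same RNA samples.

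Etv5 is read by 3 probe sets, of which 1420998_at and 1450082_s_at were designed on the same sequence record and 1428142_at on another. RefSeq places 2 transcript starts of Etv5 on the minus strand of chromosome 16 in build GRCm38.p6, and the 300 bases around each, from 250 before the start to 50 after it, are shown because the known regulation of PEA3 genes by CIC and by ETS factors acts through short motifs near the start. Capitals mark AGGAAG, the ETS motif for which PEA3 was named.
Etv5 window chr16:22439521-22439820, minus strand: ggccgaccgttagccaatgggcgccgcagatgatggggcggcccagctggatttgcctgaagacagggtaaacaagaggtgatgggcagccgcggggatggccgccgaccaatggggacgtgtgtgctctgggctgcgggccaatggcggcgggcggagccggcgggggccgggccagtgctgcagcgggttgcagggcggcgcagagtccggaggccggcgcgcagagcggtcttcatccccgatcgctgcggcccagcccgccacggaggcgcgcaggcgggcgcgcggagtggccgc
Etv5 window chr16:22438319-22438618, minus strand: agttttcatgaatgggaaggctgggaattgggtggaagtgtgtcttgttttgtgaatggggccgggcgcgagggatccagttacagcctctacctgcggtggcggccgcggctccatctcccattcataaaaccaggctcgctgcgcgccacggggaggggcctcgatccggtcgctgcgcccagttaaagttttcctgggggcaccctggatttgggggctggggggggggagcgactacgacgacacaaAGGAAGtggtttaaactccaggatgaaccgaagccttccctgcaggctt
The window at 22439521 is 74.0% G and C and has 3 copies of CCAAT, a promoter element, and no AGGAAG on either strand. The window at 22438319 is 60.0% G and C and has 1 AGGAAG, on the strand of the gene, and 1 CCAAT on the other strand. Over all 32851 promoter windows of this length, 35.4% hold AGGAAG and 37.4% hold CCAAT. Neither Etv5 window holds the CIC octamer in any of the forms searched on both strands (TGAATGAA, TGAATGGA, TCAATGAA and TCAATGGA, in 3.84% of all windows) or the cyclic AMP element TGACGTCA (1.79%). Forms of the octamer ending in G were not searched, and the window at 22438319 holds TGAATGGG on both strands. Of the Etv1 windows, 1 of 2 holds AGGAAG, as 2 overlapping copies. Neither Etv1 window holds a searched form of the octamer or the cyclic AMP element. A match is letters only, and binding was not measured.

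At 1428142_at, the brightest Etv5 probe set, the FVB normals had log2 values of 11.08, 10.88, 10.75, 10.80 and 11.00, and the mixed-strain normals 11.07, 11.15, 11.26, 11.20 and 11.42. The L858R tumours read 12.16, 12.25, 12.03 and 11.61, the L858R+T790M tumours 11.67, 11.62, 11.50, 11.97 and 10.91, and the T790M tumours 11.44, 11.85, 11.68, 11.77 and 11.55. All L858R tumours lay above all mixed-strain normals and all T790M tumours above all FVB normals, while L858R+T790M replicate 5 lay inside the range of the FVB normals. Over all groups, 13 of 14 tumours exceeded the highest normal. Group means ± SD, in ascending order, were 10.90 ± 0.14 (n = 5) in FVB normals, 11.22 ± 0.13 (n = 5) in mixed-strain normals, 11.53 ± 0.39 (n = 5) in L858R+T790M, 11.66 ± 0.17 (n = 5) in T790M and 12.01 ± 0.28 (n = 4) in L858R tumours. Each neighbour in this order overlapped the next in range, so the order itself is not resolved by the arrays.

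Etv5 at 1428142_at rose by 0.79 ± 0.16 in L858R tumours (1.73-fold, adjusted p = 3.1e-04 by limma). It rose by 0.63 ± 0.15 in L858R+T790M tumours (1.55-fold, adjusted p = 0.00178) and by 0.76 ± 0.15 in T790M tumours (1.69-fold, adjusted p = 3.2e-04). These calls, too, held without any single array. L858R+T790M replicate 5, the tumour with the lowest Etv5, had a mean of the alveolar type 2 markers of 13.90 on the log2 scale, the lowest of its group but above every normal. It also had the highest means of its group for the alveolar type 1 markers (11.95, with FVB normals at 11.91 to 12.60) and the fibroblast markers (10.15, with FVB normals at 10.06 to 10.65). The same held for smooth muscle and pericyte (9.08), cardiac muscle (7.59) and macrophage markers (10.80, with FVB normals at 9.21 to 9.60). Endothelial (10.54), club (13.25) and ciliated markers (7.57) were highest in L858R+T790M replicate 3, as were T cell and B cell markers. Etv5 was 11.50 in replicate 3. The part of these cell types in the low Etv5 of replicate 5 was not tested.

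The other Etv5 probe sets gave the same picture at lower brightness. At 1420998_at, the L858R tumours read 10.16, 10.18, 10.25 and 9.65, the L858R+T790M tumours 9.62, 9.73, 9.81, 10.12 and 9.04, and the T790M tumours 9.58, 9.86, 9.99, 9.83 and 9.81, against 8.92 to 9.13 in FVB and 9.06 to 9.61 in mixed-strain normals. At 1450082_s_at, the L858R tumours read 11.08, 10.92, 10.99 and 10.37, the L858R+T790M tumours 10.63, 10.64, 10.54, 11.01 and 9.99, and the T790M tumours 10.44, 10.69, 10.69, 10.73 and 10.63, against 9.83 to 10.03 and 9.83 to 10.45. L858R+T790M replicate 5 was again the lowest tumour at both, and the L858R tumours stood apart from their normals at 1420998_at but overlapped them at 1450082_s_at through replicate 4. Differences were 0.72 ± 0.16, 0.64 ± 0.15 and 0.79 ± 0.15 at 1420998_at in L858R, L858R+T790M and T790M tumours (adjusted p = 0.00102, 0.00207 and 2.8e-04). At 1450082_s_at they were 0.71 ± 0.16, 0.64 ± 0.15 and 0.71 ± 0.15 (adjusted p = 0.00103, 0.00180 and 6.2e-04). Over 24 arrays the 3 probe sets correlated at r = 0.96 to 0.98, and at 0.86 to 0.94 for deviations from the group means.

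**Figure D1:**
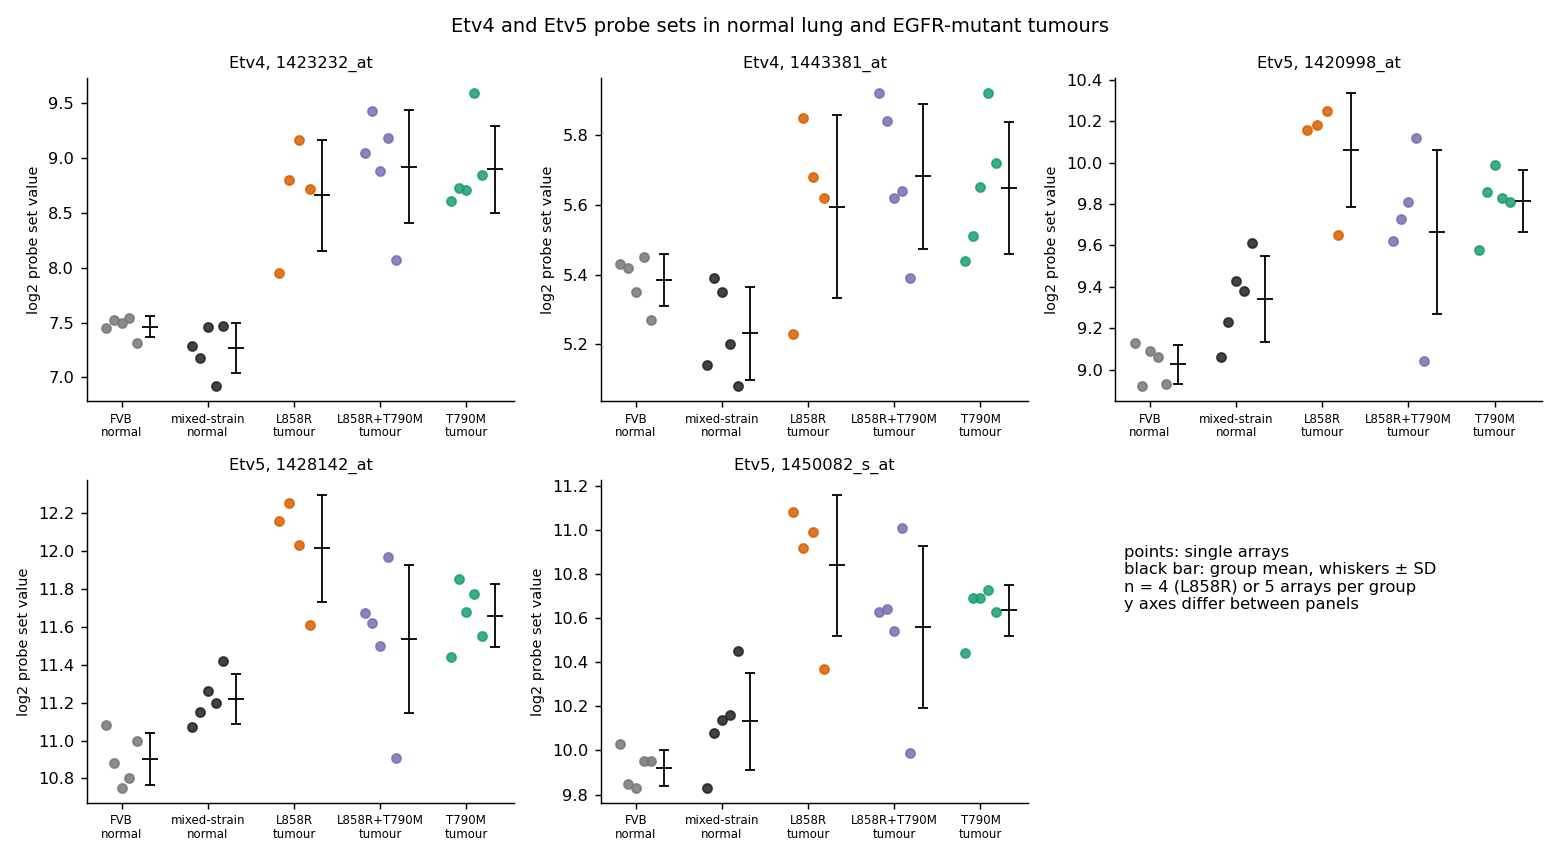
Log2 value of each Etv4 and Etv5 probe set (y axis, scale differs by panel) in every array of the 5 groups (x axis), with the group mean and SD as a black bar. At Etv4 1423232_at all 14 tumours lie above all 10 normals, and at each Etv5 probe set L858R+T790M replicate 5, at 9.04, 10.91 and 9.99, is the lowest tumour.

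Counted together, 5 of 5 Etv4 and Etv5 probe sets were called higher in L858R tumours, where 22.1% of all 34945 probe sets were called higher. The counts were 5 of 5 in L858R+T790M tumours, against 18.9% of all, and 4 of 5 in T790M tumours, against 20.8%. Ranges of tumours and their normals stood apart for 3, 1 and 4 of the 5, where 18.4%, 15.4% and 15.9% of all probe sets had separate ranges in the higher direction. The median difference of the 5 was 0.72, 0.64 and 0.76, and that of all probe sets 0.04, 0.03 and 0.00. In L858R tumours, 55.1% of all calls were higher ones, and 66.8% when each array was centred on its own median, so the background share is itself open to the scaling.

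The next question was whether the tumour genotypes differed. L858R+T790M and T790M tumours were compared directly, since both are labelled FVB, and 0 of 5 probe sets was called (limma; 0 of 5 at an unadjusted p under 0.05), where 1.38% of all probe sets were. Etv4 at 1423232_at differed by 0.02 (95% interval -0.44 to 0.49, adjusted p = 0.974) and Etv5 at 1428142_at by -0.12 (-0.43 to 0.18, adjusted p = 0.725). L858R tumours were set against the other genotypes after each had its own normals subtracted. The difference between the L858R and the L858R+T790M effect was -0.06 for Etv4 (-0.75 to 0.62, adjusted p = 0.973) and 0.16 for Etv5 (-0.28 to 0.60, adjusted p = 0.852). Between the L858R and the T790M effect it was -0.04 (-0.72 to 0.64, adjusted p = 0.969) and 0.04 (-0.41 to 0.48, adjusted p = 0.956). Neither of these comparisons called any of the 5 probe sets (limma; 0 at an unadjusted p under 0.05), where 0.177% and 0.521% of all probe sets were called. The intervals show the limit of 4 or 5 arrays a group. For Etv4, a genotype difference of 0.6 in either direction lies inside the intervals of both comparisons with L858R. For Etv5, an L858R effect larger by 0.4 lies inside both intervals. One smaller by 0.4 lies inside the interval of the T790M comparison only.

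The 2 sets of normal lung bear on these comparisons through Etv5. Mixed-strain normals exceeded FVB normals by 0.32 ± 0.15 at both 1420998_at and 1428142_at and by 0.21 ± 0.15 at 1450082_s_at. None was called (limma, adjusted p = 0.286, 0.271 and 0.507), 2 of 5 probe sets had an unadjusted p under 0.05 (0.0475 and 0.0411), and 2.28% of all probe sets were called. These 2 were called with array weights (0.31 and 0.33, adjusted p = 0.0439 and 0.0172) and in a fit to the normals alone (adjusted p = 0.0453 and 0.0247). Under these settings, 6515 and 4734 of all 34945 probe sets were called, in place of 795. Etv4 went the other way without a call, by -0.20 ± 0.23 at 1423232_at (adjusted p = 0.714) and by -0.15 ± 0.11 at 1443381_at (adjusted p = 0.518).

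**Figure D2:**
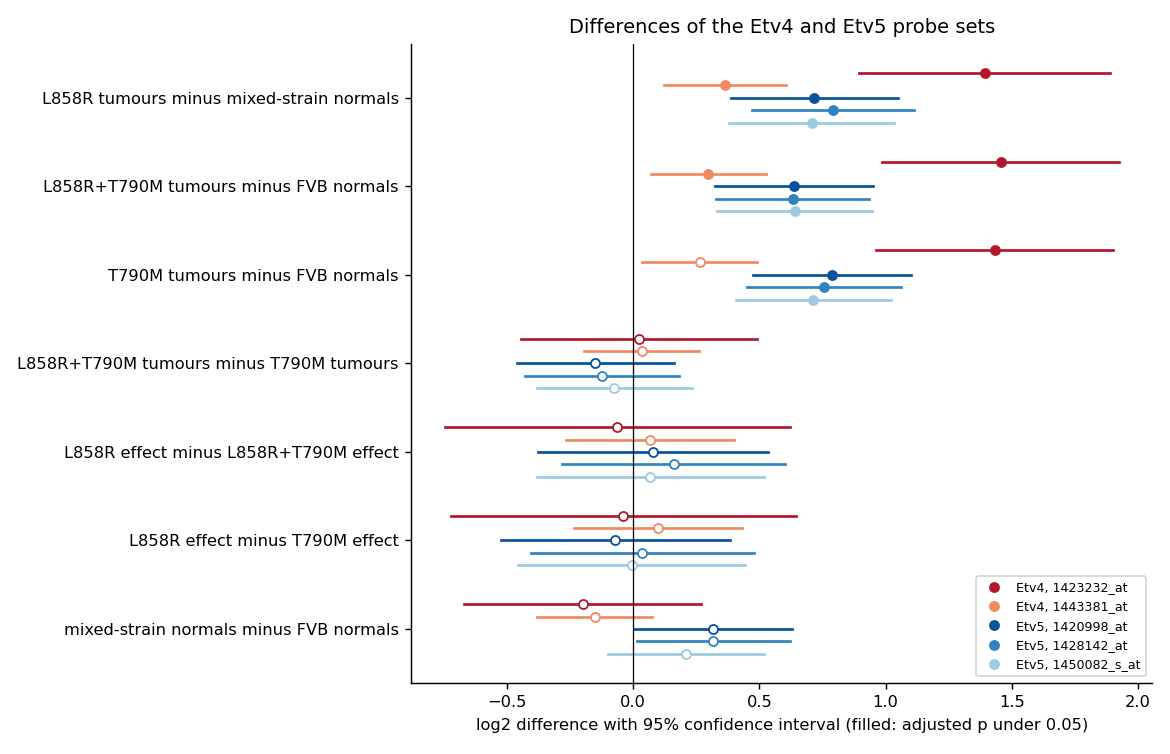
Log2 difference of each Etv4 and Etv5 probe set (x axis, point) with its 95% interval (line) in the 7 comparisons (y axis); filled points had an adjusted p under 0.05 in limma. All but 1 of the tumour against normal points are filled, the exception being Etv4 1443381_at in T790M tumours, and the points of the genotype and strain comparisons are open.

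Although both genes were higher in every tumour group, their levels did not track each other closely from tumour to tumour. Within the 14 tumours, Etv4 at 1423232_at and Etv5 at 1428142_at correlated at r = 0.21 (permutation p = 0.462, adjusted 0.971 over 7 relations) and rho = 0.20 (permutation p = 0.491, adjusted 0.965). Without L858R replicate 1 and T790M replicate 4, the tumours farthest from the median of Etv4, r was 0.61 over 12 tumours, and for deviations from the genotype means it was 0.47. L858R replicate 1 had the lowest Etv4 of all tumours, 7.95, beside an Etv5 of 12.16, and T790M replicate 4 the highest Etv4, 9.59, beside an Etv5 of 11.77. The mean of the alveolar type 2 markers correlated with Etv4 at r = 0.01 (permutation p = 0.971, adjusted 0.971) and rho = 0.04 (permutation p = 0.893, adjusted 0.965). With Etv5 it gave r = 0.13 (permutation p = 0.637, adjusted 0.971) and rho = 0.02 (permutation p = 0.965, adjusted 0.965). Without T790M replicates 4 and 2 these r were 0.48 and 0.31.

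**Figure D3:**
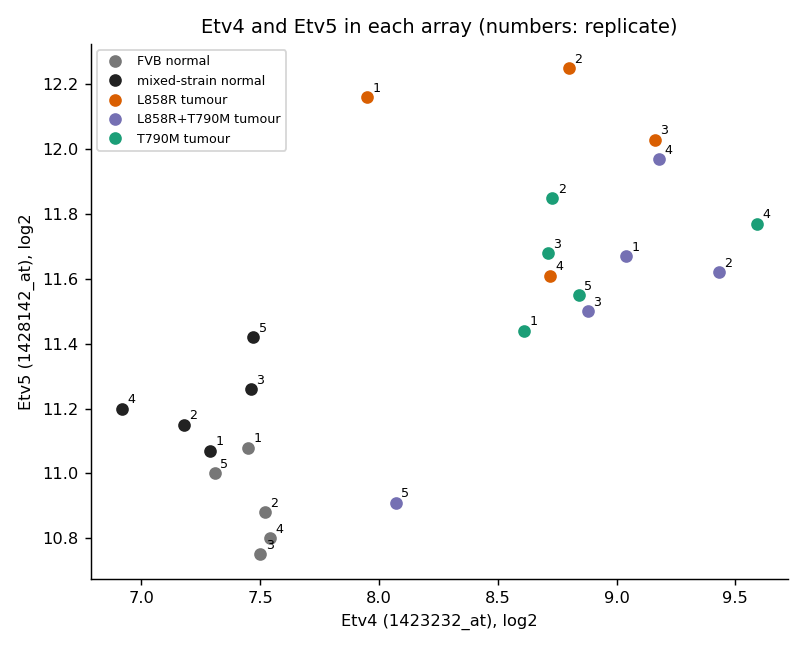
Log2 value of Etv5 (1428142_at, y axis) against Etv4 (1423232_at, x axis) in each of the 24 arrays, coloured by group, with the replicate number beside each point. Tumours and normals separate along Etv4, between 7.54 and 7.95, while L858R replicate 1 (7.95 and 12.16) and T790M replicate 4 (9.59 and 11.77) depart most from the other tumours along that axis.

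Among 16328 genes read by their brightest probe set, the 5 with log2 values most like Etv4 over all 24 arrays were Aifm3 (r = 0.96), Shroom1 (0.96), St6galnac4, a sialyltransferase (0.96), Ros1, a receptor tyrosine kinase (0.95), and Eml2 (0.95). Etv5 came at place 2158 for Etv4, with r = 0.71. The 5 most like Etv5 were Cutal (0.91), Slc46a1, a folate transporter (0.91), Nudt1, which clears oxidised nucleotides (0.91), Pfdn1 (0.91) and Adgrg1, an adhesion receptor (0.90), and Etv4 came at place 1475. All these values share the same 24 arrays and span the step from normal lung to tumour. For deviations from the 5 group means, the genes most like Etv4 were Slc13a2 (0.88), C1qbp (0.87), Ppm1h (0.86), Rims1 (0.85) and Shroom1 (0.85), and those most like Etv5 were Rab5if (0.85), Zfand1 (0.82), Cox16 (0.82), Xrcc5 (0.81) and Coil (0.81). Shroom1 was on both lists for Etv4, and no gene was on the lists of both factors. Etv4 and Etv5 then correlated at 0.44.

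The 3 probe sets annotated to both Etv1 and Gm5454 behaved differently, and neither gene's level can be read from them. At 1422607_at, the brightest, the FVB normals read 8.22, 8.24, 8.14, 8.06 and 7.80 and the mixed-strain normals 8.56, 8.32, 8.17, 8.26 and 8.25. The L858R tumours read 8.55, 6.75, 9.95 and 8.56, the L858R+T790M tumours 8.77, 7.85, 9.26, 9.02 and 7.76, and the T790M tumours 9.79, 7.16, 9.98, 8.57 and 9.44. Of the 14 tumours, 8 lay above the highest normal and 3 below the lowest, so tumours fell on both sides of normal lung. They spanned 3.23 log2 units, or 9.38-fold, from L858R replicate 2 to T790M replicate 3, against 0.76 for the 10 normals. The SD was 1.31 in L858R, 0.69 in L858R+T790M and 1.16 in T790M tumours, and 0.18 and 0.15 in FVB and mixed-strain normals.

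At the other shared probe sets, the tumours were again more spread than the normals. At 1450684_at, the L858R tumours read 7.03, 5.58, 8.67 and 7.23, the L858R+T790M tumours 7.14, 5.69, 7.61, 7.42 and 6.36, and the T790M tumours 8.31, 6.03, 8.33, 7.29 and 7.94, with the normals at 6.33 to 7.41. The dim 1445314_at ran from 3.69 to 4.90 in tumours and from 3.67 to 4.18 in normals. At 1450684_at, 6 of the 14 tumours lay above the highest normal and 3 below the lowest. L858R+T790M replicate 2 (5.69) was among those below, while replicate 5 (6.36) was not, the reverse of 1422607_at. At 1445314_at, 6 lay above the highest normal and 0 below the lowest. Between probe sets, r over the 24 arrays was 0.88 to 0.96, and 0.88 to 0.98 for deviations from the group means. None was called in any of the 7 comparisons by limma, tested among the 10092 probe sets with several genes or none, of which 27.1%, 19.6% and 23.6% were called in L858R, L858R+T790M and T790M tumours. At an unadjusted p under 0.05, 2 of 3 passed in T790M tumours and 0 in the others. The difference at 1422607_at was 0.14 ± 0.50 in L858R tumours (adjusted p = 0.868), 0.44 ± 0.47 in L858R+T790M tumours (adjusted p = 0.601) and at most 0.90 ± 0.47, in T790M tumours (adjusted p = 0.182). Within tumours 1422607_at correlated with Etv4 at r = 0.11 and rho = 0.10 (permutation p = 0.705 and 0.731, adjusted 0.971 and 0.965; r = 0.09 without L858R replicate 2 and T790M replicate 2). With Etv5 it gave r = -0.13 and rho = -0.21 (permutation p = 0.660 and 0.470, adjusted 0.971 and 0.965; r = 0.31 without the same tumours).

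**Figure D4:**
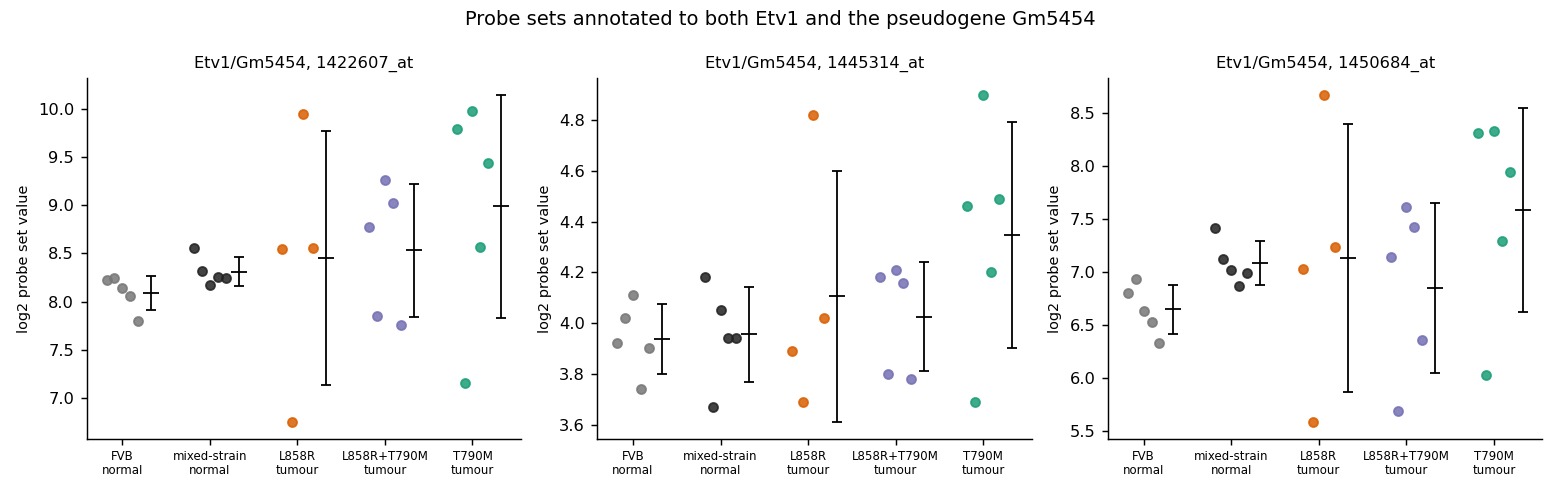
Log2 value of the 3 probe sets annotated to both Etv1 and the pseudogene Gm5454 (y axis, scale differs by panel) in every array of the 5 groups (x axis), with group mean and SD as a black bar. At 1422607_at the tumours run from 6.75 to 9.98 and the normals from 7.80 to 8.56.

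Among 22 other ETS factors read by their brightest probe set, 3 epithelial members, Elf5, Ehf and Elf3, rose in each tumour group. Spdef, another epithelial member, was not called (-0.04, 0.03 and 0.34). Elf5, a factor of secretory and branching epithelia, rose by 2.22 ± 0.31, 1.56 ± 0.29 and 2.27 ± 0.29 in L858R, L858R+T790M and T790M tumours, Ehf by 1.75 ± 0.22, 1.37 ± 0.21 and 1.75 ± 0.21, and Elf3 by 0.72, 0.56 and 0.71. Erg (-2.09, -2.24 and -2.03), Fli1 (-1.27, -1.74 and -1.52) and Ets1 (-2.04, -1.63 and -1.38) fell; these factors are known from endothelial and blood cells, and all 6 endothelial markers fell in the same tumours, as given above. Spib, known from B cells, fell (-1.43, -1.42 and -1.16), beside 2 of 3 B cell markers that fell in each group. Ets2, itself a factor activated by ERK, fell as well (-1.04, -0.75 and -0.60). Spi1, for the myeloid factor PU.1, rose in L858R tumours (0.93 ± 0.28, adjusted p = 0.00954) and differed by 0.27 and -0.11 in the others (adjusted p = 0.471 and 0.784), and 3 of 5 macrophage markers rose in L858R tumours. The part of these cell types in the ETS differences was not tested.

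In all, 5, 5 and 3 of the 22 rose and 8, 8 and 8 fell, with medians of -0.14, -0.03 and -0.01 against 0.05, 0.03 and 0.00 for all genes. By brightest probe set 23.1%, 19.9% and 21.6% of all genes rose and 17.9%, 15.9% and 17.7% fell. The T790M count of rises was 5 with each array centred on its median, with quantile normalization, or without T790M replicate 1. The L858R count of falls was 6 with centred arrays and 6 to 8 when single arrays were left out. None of the 22 was called between genotypes, either directly or as a difference between tumour effects (limma, adjusted p under 0.05).

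**Figure D5:**
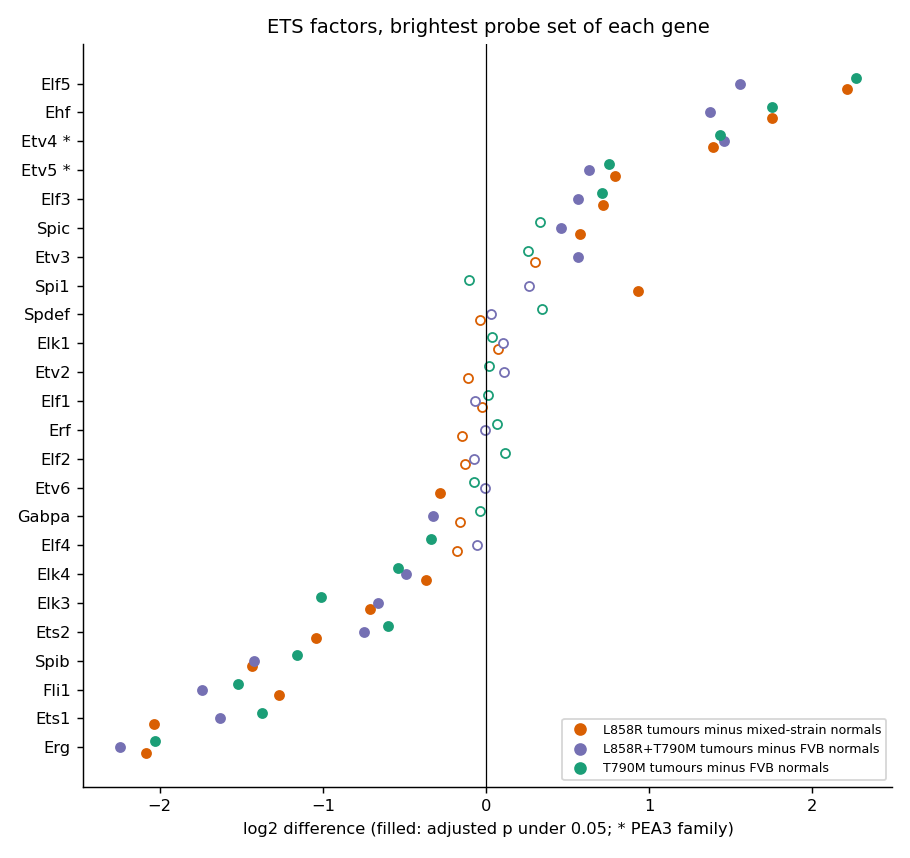
Log2 difference of Etv4, Etv5 and 22 other ETS factors between tumours and the normals of the same strain label (x axis), 1 row per gene and 1 marker per tumour group; filled markers had an adjusted p under 0.05 in limma. Elf5 lies farthest to the right, at 1.56 to 2.27, and Erg farthest to the left, at -2.24 to -2.03.

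FGF signals are among those known to reach PEA3 genes in the developing lung. More FGF ligand and receptor genes fell than rose in each tumour group. Of 10 read, 0 rose and 7 fell in L858R tumours, 1 rose and 5 fell in L858R+T790M tumours, and 1 rose and 5 fell in T790M tumours, with medians of -0.83, -0.48 and -0.42. By brightest probe set, 23.1%, 19.9% and 21.6% of all genes rose and 17.9%, 15.9% and 17.7% fell. Fgfr2, the receptor for FGF7 and FGF10 in lung epithelium, was the gene that rose, by 0.81 ± 0.24 (adjusted p = 0.0105) with L858R+T790M and by 1.43 ± 0.24 (adjusted p = 7.3e-05) with T790M. In L858R tumours it differed by 0.52 ± 0.25 (adjusted p = 0.106). Fgfr4 (-2.50, -1.58 and -1.46), Fgfr3 (-1.44, -1.89 and -1.89), Fgf7 (-1.74, -0.97 and -1.17) and Fgf18 (-1.13, -0.91 and -1.12) fell in every tumour group. So did Fgfr1 (-1.22, -0.66 and -0.79), but its L858R+T790M call was lost in 8 of 12 alternatives (limma, adjusted p up to 0.136). Fgf10, the branching ligand, differed by -0.27, -0.03 and -0.04, and the L858R call (adjusted p = 0.0251) was lost without L858R replicates 1 or 2 or mixed-strain normals 1 or 5, or with centred arrays. Fibroblast markers, of the cells that make several FGFs, fell for 5, 3 and 3 of 6, and their part was not tested. Fgf10 is itself 1 of these 6 markers, and 1 of the 5 that fell in L858R tumours, so the lists share it.

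Between receptor and ERK, 13 of 18 listed genes of the cascade were read, and 3 rose in each tumour group while 2, 0 and 3 fell (medians 0.04, -0.01 and -0.05). The counts of rises are near the shares of all genes that rose, 23.1%, 19.9% and 21.6%, beside 17.9%, 15.9% and 17.7% that fell. Shc1, an adaptor of activated receptors, rose by 0.98, 1.29 and 1.10. The MEK genes Map2k1 and Map2k2 rose by 0.70, 0.67 and 0.35, and by 0.43, 0.38 and 0.42. The scaffold gene Ksr1 fell in L858R (-0.67) and T790M tumours (-0.51), with -0.21 (adjusted p = 0.106) in L858R+T790M. Map2k1 and Egfr were higher in L858R+T790M than in T790M tumours, by 0.32 ± 0.07 (adjusted p = 0.0335) and 0.28 ± 0.06 (adjusted p = 0.0244), the 2 calls among the 13 in that comparison. Against FVB normals, Egfr was lower in T790M tumours (-0.29, adjusted p = 8.0e-04) and differed by -0.01 in L858R+T790M tumours (adjusted p = 0.957). The Egfr call was lost without L858R+T790M replicate 5 (adjusted p = 0.0564), and that of Map2k1 without it, without L858R+T790M replicates 1, 2 or 4, or without T790M replicate 4 (adjusted p up to 0.104). Whether the probe set that reads Egfr also reads the mutant transgene was not tested.

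Genes that ERK signalling is known to induce, other than the PEA3 family, were often higher. Of 18 read, 11, 13 and 13 rose and 1, 0 and 1 fell, with medians of 0.46, 0.57 and 0.63. Of all genes, 23.1%, 19.9% and 21.6% rose and 17.9%, 15.9% and 17.7% fell, with medians of 0.05, 0.03 and 0.00. The L858R count of rises was 7 without L858R replicate 3 and 8 with quantile normalization. In T790M tumours, 2 genes fell without T790M replicate 2. Dusp6, an ERK phosphatase often read beside Etv4 and Etv5 as an output of the cascade, rose by 0.72 ± 0.14, 0.96 ± 0.13 and 0.73 ± 0.13. The feedback inhibitor Spred1 rose by 1.35, 1.65 and 1.41, the phosphatase Dusp4 by 1.59, 2.06 and 2.11, and Myc by 1.15, 1.13 and 1.13. Spry4, another feedback inhibitor, rose by 0.61 and 0.67 in L858R+T790M and T790M tumours and differed by 0.08 (adjusted p = 0.713) in L858R. Ier3 fell in L858R (-1.58) and T790M tumours (-0.85). The immediate early genes Egr1 and Fos were not called in any tumour group (0.10, 0.49 and -0.18 for Egr1; 0.04, -0.20 and -0.65 for Fos). The mean of the 18 was 9.43 to 9.64 in normals and 9.78 to 10.53 in tumours on the log2 scale. Within tumours it correlated with Etv4 at r = 0.20 and rho = 0.28 (permutation p = 0.505 and 0.337, adjusted 0.971 and 0.965; r = 0.33 without T790M replicate 2 and L858R replicate 2). With Etv5 it gave r = -0.01 and rho = 0.09 (permutation p = 0.956 and 0.750, adjusted 0.971 and 0.965; r = 0.21 without the same tumours).

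The known regulators of PEA3 genes and proteins moved both ways. Of 9 read, 3, 3 and 3 rose and 2, 2 and 2 fell (medians 0.16, 0.15 and 0.14). These counts are within 2 genes of what the shares of all genes given above would give. Cic, the repressor, differed by 0.09 ± 0.09, 0.14 ± 0.09 and 0.08 ± 0.09 (adjusted p = 0.456, 0.240 and 0.529), and Cop1, of the ligase, by 0.17, 0.04 and 0.17 (adjusted p = 0.278, 0.817 and 0.245). Trib2, of the pseudokinase family that brings substrates to COP1, fell (-1.56 ± 0.24, -1.60 ± 0.23 and -1.36 ± 0.23). Its relative Trib1 rose by 0.47, 0.93 and 0.87, but the L858R call was lost without any 1 of its 9 arrays. Atxn1l, a partner of CIC, fell (-0.23, -0.28 and -0.34). The L858R call of Atxn1l was lost with centred arrays and without L858R replicates 1, 2 or 3 or mixed-strain normals 1, 2, 4 or 5, which leaves 1 regulator called lower. Atxn1, the other CIC partner, rose by 0.39 in L858R and 0.33 in L858R+T790M tumours and differed by 0.05 in T790M tumours, which was not called. Its L858R+T790M call was lost without FVB normals 1 or 5 or L858R+T790M replicates 1 or 5. Ddb1, of the same ligase as Cop1, rose by 0.49 in L858R+T790M and T790M tumours, and Cul4a rose by 0.35 in L858R and 0.32 in T790M tumours. The T790M call of Cul4a was lost with quantile normalization (adjusted p = 0.0530).

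Genes reported elsewhere as targets of PEA3 factors moved both ways. Of 18 read, 2, 3 and 3 rose and 6, 4 and 7 fell, with medians of -0.28, 0.00 and -0.33. The shares over all genes were 23.1%, 19.9% and 21.6% for rises and 17.9%, 15.9% and 17.7% for falls. The receptor gene Erbb2 rose in each tumour group, by 0.58, 0.72 and 0.64. Mmp14, a membrane metalloproteinase, rose by 0.98 in L858R+T790M tumours and 0.61 in T790M tumours (adjusted p = 0.0445), with 0.55 (adjusted p = 0.0820) in L858R. Sox9, a factor of the lung's branching tips, rose by 1.67 ± 0.60 and 1.63 ± 0.60 in L858R+T790M and T790M tumours (adjusted p = 0.0349 and 0.0360) and differed by 1.51 ± 0.64 in L858R (adjusted p = 0.0637). The Sox9 calls were lost without any 1 of the FVB normals, or without L858R+T790M replicates 2, 3 or 4 or T790M replicates 2 or 4 in their own comparisons, and losses of Mmp14 and Sox9 together left 1 of 18 genes called higher in T790M tumours without FVB normals 2, 3, 4 or 5 or T790M replicates 2 or 4. In L858R tumours the count of rises was 4 without L858R replicate 1, 1 without L858R replicate 4 and 6 with centred arrays. Sftpc, which encodes surfactant protein C, differed by 0.05, 0.08 and 0.01, none called. With each array centred on its median, Sftpc was called in L858R (adjusted p = 0.0156) and L858R+T790M tumours (adjusted p = 0.010). Genes that fell in each group included Vim, the mesenchymal filament gene (-1.09, -1.08 and -1.16), and the cyclin genes Ccnd2 (-0.95, -1.01 and -1.36) and Ccnd3 (-0.57, -0.55 and -0.67). The Ccnd2 call in L858R tumours was lost without L858R replicate 4.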

How the data were processed

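Total RNA of 24 mouse lung samples was hybridised to MOE 430 2.0 arrays, 1 per sample. Probe sets were summarised by the authors with RMA, per the submitters' processing notes, to the log2 values deposited. The RMA version and options were not given in the sources used here. They were not normalized further. The platform annotation gave 1 gene to 34945 of 45101 probe sets, several to 932 and none to 9160, with 64 controls left out. The GRCm38 RefSeq table gave current symbols, by Entrez identifier, to 34741 of them, and 204 kept older ones. Levels were compared between probe sets only to call some brighter or dimmer, to choose the brightest of a gene and to filter dim ones.

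A limma model (version 3.58.1, R 4.3.3; lmFit, then eBayes with trend) gave the 5 groups a mean each and 1 shared estimate of spread, with 19 residual degrees of freedom. Two-sided p-values were adjusted by Benjamini-Hochberg over all 34945 probe sets of a comparison, and a probe set was called at an adjusted p under 0.05. The code was tested on simulated data. Arrays hold no counts, so precision was set by the 4 or 5 arrays a group. Correlations within tumours used 100000 permutations (two-sided, SciPy 1.17.1, Python 3.11.15); figures used matplotlib 3.10.9. List genes were read by their brightest probe set.

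The text names every probe set of the family, the 5 genes most like each member by either measure of likeness (clones and predicted genes passed over), and genes of 19 lists. The family and the lists were chosen with earlier results of these data known. Same-numbered arrays of different groups correlated from -0.28 to 0.42 in their deviations and were not treated as pairs. Alternatives were both scalings, summaries over probe sets, a filter on dim probe sets, array weights, other sample sets, the replicate block, stricter thresholds and leaving out each array. List counts under scaling and without each array were added after the data were seen.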

Additional observations from a re-analysis of the deposited data

Results flagged for a closer look

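In T790M tumours, Etv4 at 1423232_at was 9.59 in replicate 4 and next 8.84, a gap of 0.765 of the range of the group, which marked that array as far from the others of its group. In L858R tumours, Etv5 at 1420998_at was 9.65 in replicate 4 and next 10.16, a gap of 0.85 of the range. These were 2 of 40 groups of arrays tested in this way, and chance alone marks about 1 in 20. Without either array, the called differences of these probe sets from normal lung were still called.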

How the results depend on the processing

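Every Etv4 1423232_at and Etv5 call against normal lung held under each alternative except the 2-fold minimum, where 1 of 5 probe sets, Etv4 1423232_at, was left in each tumour group. That minimum left 3331, 2516 and 2551 of all 34945 probe sets called, in either direction. Read per gene, by its brightest probe set or by the median of its probe sets, 2 of 2 genes were called in each tumour group. By brightest probe set, 7523, 6594 and 7238 of all 18193 genes were called in either direction. By the median, 7424, 6467 and 7002 were. Leaving out each array gave 4 to 5 calls against normals and 0 in the other comparisons. The dim Etv4 1443381_at was gained in T790M tumours with centred arrays (0.31, adjusted p = 0.0319), quantile normalization (0.32, 0.0161), array weights (0.26, 0.0148), only the groups compared (0.26, 0.0364), all 10 normals (0.34, 0.00668) or without T790M replicate 1 (0.32, 0.0333). Between the normals, 2 probe sets were called with array weights and 2 with only those groups, where 6515 and 4734 of all 34945 were called. With the replicate number as a block, 5, 5, 4, 0, 0, 0 and 0 probe sets were called in the 7 comparisons, and no call of a member changed. Of all probe sets, 13520, 11778, 13150, 355, 34, 140 and 602 were called with this block, in either direction.

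Under alternatives other than leaving out an array, 14 signs turned, all in differences that were not called. Between L858R+T790M and T790M tumours these were 0.022 and 0.011 with array weights for Etv5 1428142_at and 1450082_s_at. Between the L858R and L858R+T790M effects they were 0.0013 with the median for Etv4, -0.0061 with array weights for Etv5 1450082_s_at, and -0.087 with the direct difference for Etv4 1443381_at. Between the L858R and T790M effects they were 0.019 centred, 0.0044 with quantile normalization and with array weights, and 0.20 direct for Etv5 1450082_s_at; 0.030 with the median and 0.18 with array weights for Etv4; -0.0060 with the median for Etv5; -0.053 direct for Etv4 1443381_at; and 0.25 direct for Etv5 1420998_at. The direct differences hold the difference between the normals too, and the cause of the other turns was not tested. Without each array, signs turned within -0.28 to 0.17, -0.02 to 0.19, -0.076 to 0.22 and -0.075 to 0.23 (L858R against L858R+T790M effects; Etv4 1423232_at and 1443381_at, Etv5 1420998_at and 1450082_s_at). The ranges were -0.21 to 0.20, -0.14 to 0.067, -0.043 to 0.17 and -0.086 to 0.15 for L858R against T790M effects (Etv4 1423232_at, Etv5 in the order 1420998_at, 1428142_at, 1450082_s_at). Between L858R+T790M and T790M they were -0.10 to 0.24 and -0.026 to 0.11 for Etv4, and -0.26 to 0.0060, -0.23 to 0.032 and -0.19 to 0.069 for Etv5.

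Counts of calls over all probe sets moved too. Array weights and only the groups compared gave 1008 and 7 in place of 481 between L858R+T790M and T790M tumours, and 6515 and 4734 in place of 795 between normals. For the L858R against L858R+T790M and T790M effects they gave 128 and 134 in place of 62, and 562 and 340 in place of 182; the direct differences gave 1253 and 2358, which hold the strain difference too. The block gave 34 and the filter on dim probe sets 39 in place of 62. An adjusted p under 0.01 left 82 of 481, 15 of 62 and 23 of 182, and a 2-fold minimum left 98, 24 and 71, and 51 of 795 between normals. A 2-fold minimum left 3331, 2516 and 2551 of the 14043, 11911 and 13275 calls against normals. Centring moved the median of all probe sets to 0.11, 0.07 and 0.05 and the share of higher calls between normals from 59.4% to 71.6%.

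Etv4 1443381_at is dim, and the filter on dim probe sets removes it. The labels do not say whether arrays are separate mice or which normals carried a transgene, and tumour and normal tissue differ in their cell types.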
